A study of Xenopus tropicalis with 20 samples.

Results

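The nuclear genes of the respiratory chain and ATP synthase were followed, complex by complex, in livers of adult female western clawed frogs (Xenopus tropicalis). Members were the genes whose deposited symbol began with nduf, with sdha, sdhb, sdhc or sdhd (sdha also takes in the sdhaf assembly factors), with uqcr, with cox4 to cox8, or with atp5. This rule uses names and not measured values. It found 87 genes among the 20372 named genes: 43 of complex I, 7 of complex II, 7 of complex III, 14 of complex IV and 16 of complex V. With a mean of at least 1 FPKM (a level per length of transcript and per depth of library) over the libraries, 86 entered the tests. The exception was cox6a2, which in mammals is the heart and muscle isoform of a complex IV subunit and was at 0.225 scaled FPKM on average. Counts of complex IV therefore run over 13 genes. By its letters ndufa4 was counted with complex I, although its protein is a subunit of complex IV.

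Liver RNA came from 4 groups of 5 libraries, a control and a mixture group in each of the generations F1 and F2. Only the founders (F0) of the mixture lines were exposed, from the tadpole to the adult, at 50 ng/L to benzo[a]pyrene, a polycyclic aromatic hydrocarbon, together with triclosan, an antimicrobial agent. The labels do not say whether 50 ng/L was for each agent or for their sum, and F1 and F2 females were themselves unexposed. The control libraries were first released with a previous series, so batch and treatment cannot be told apart. Control labels give generation and sex, while mixture labels also name the F0 exposure. Nothing in the labels ties a library to an animal or clutch, so p-values measure only the spread between these samples. In bulk liver, fewer cells of a type and less RNA per cell cannot be told apart.

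Complexes I to IV pass electrons from NADH and succinate to oxygen, and complexes I, III and IV pump protons across the inner mitochondrial membrane as they do so. Complex V, the ATP synthase, lets the protons flow back through its membrane ring and uses that flow to make ATP at its catalytic head. Liver draws on this chain for urea and glucose synthesis and for burning fatty acids. Each of complexes I, III, IV and V also has subunits encoded in mitochondrial DNA. None of the 26 names listed for mitochondrially encoded genes was in the tables, and these genes were not analysed here.

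If each deposited FPKM limit lies 2 Poisson SD from its value, the libraries correspond to between 7896246 and 16704801 fragments, and the median half-width of the limits at 5 to 20 FPKM was 7.92% to 10.97% of the value. That error covers counting only. Levels below are scaled FPKM, divided by a factor per library (0.717 to 1.26), and fold changes are differences of log2(scaled FPKM + 1) ± SE, which understate changes of low genes. Hepatocyte markers were present in all groups: the summed level of 7 of 9 listed markers ran from 1440 to 3120 in F1 control and 2100 to 3510 in F1 mixture, then 3100 to 5040 in F2 control against 1190 to 4410 in F2 mixture. The summed level of 9 of 12 listed erythrocyte markers was high in every group, at 3990 to 21400, 4210 to 65800, 19600 to 56700 and 3510 to 46500 in the same order. No summed marker of either list was at 0 in every library. Frog red cells are nucleated and carry RNA of their own.

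Members differed widely in level, with assembly factors of complex I among the lowest and several small subunits highest. Of all 87, cox4i2 had the highest mean over 20 libraries, 696 scaled FPKM, with libraries from 268 to 2050. It was followed by ndufa4 at 600, cox6b1 at 482, atp5mf at 469 and ndufa1 at 403. The 5 lowest were cox6a2 and the complex I assembly factors ndufaf7 at 2.29, ndufaf5 at 3.92, ndufaf1 at 4.503 and ndufaf3 at 4.88. The 7 assembly factors of complex I, which help build the complex and are not part of it, stayed between 2.29 and 6.48 on average, below all of its 36 other members. The conserved core subunits that hold the flavin and the iron-sulfur clusters ran from 13.03 (ndufs1) to 53.8 (ndufv2), and the 28 accessory subunits from 10.8 (ndufv3) to 403 (ndufa1).

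In complex II, which oxidises succinate, the order was sdha at 11.03, sdhc at 31.9, sdhd at 44.6 and sdhb at 86.2. Here sdha is the flavoprotein, sdhb the iron-sulfur subunit, and sdhc and sdhd anchor both in the membrane. The complex III members lay between 13.4 (uqcrc2) and 188 (uqcrq), the 13 tested ones of complex IV between 11.04 (cox7a1) and 696 (cox4i2), and those of complex V between 69.0 (atp5f1c) and 469 (atp5mf). Summed as deposited, without scaling, the 87 members held 1.16% ± 0.136 (SD, n = 5) of the FPKM of named genes in F1 control and 1.33% ± 0.112 in F1 mixture. They held 1.06% ± 0.0518 in F2 control against 0.890% ± 0.0541 in F2 mixture. The total leaves out values not marked sound, 5 to 12 per library, so it does not cover the same genes in every library. The abundant liver and blood genes alb and hba1 each had such values. All 5 F2 mixture libraries (0.803% to 0.933%) were below all 15 others. The shares weigh the few abundant members most and fall when other abundant transcripts rise, whereas the comparisons below weigh each member equally.

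**Figure D1:**
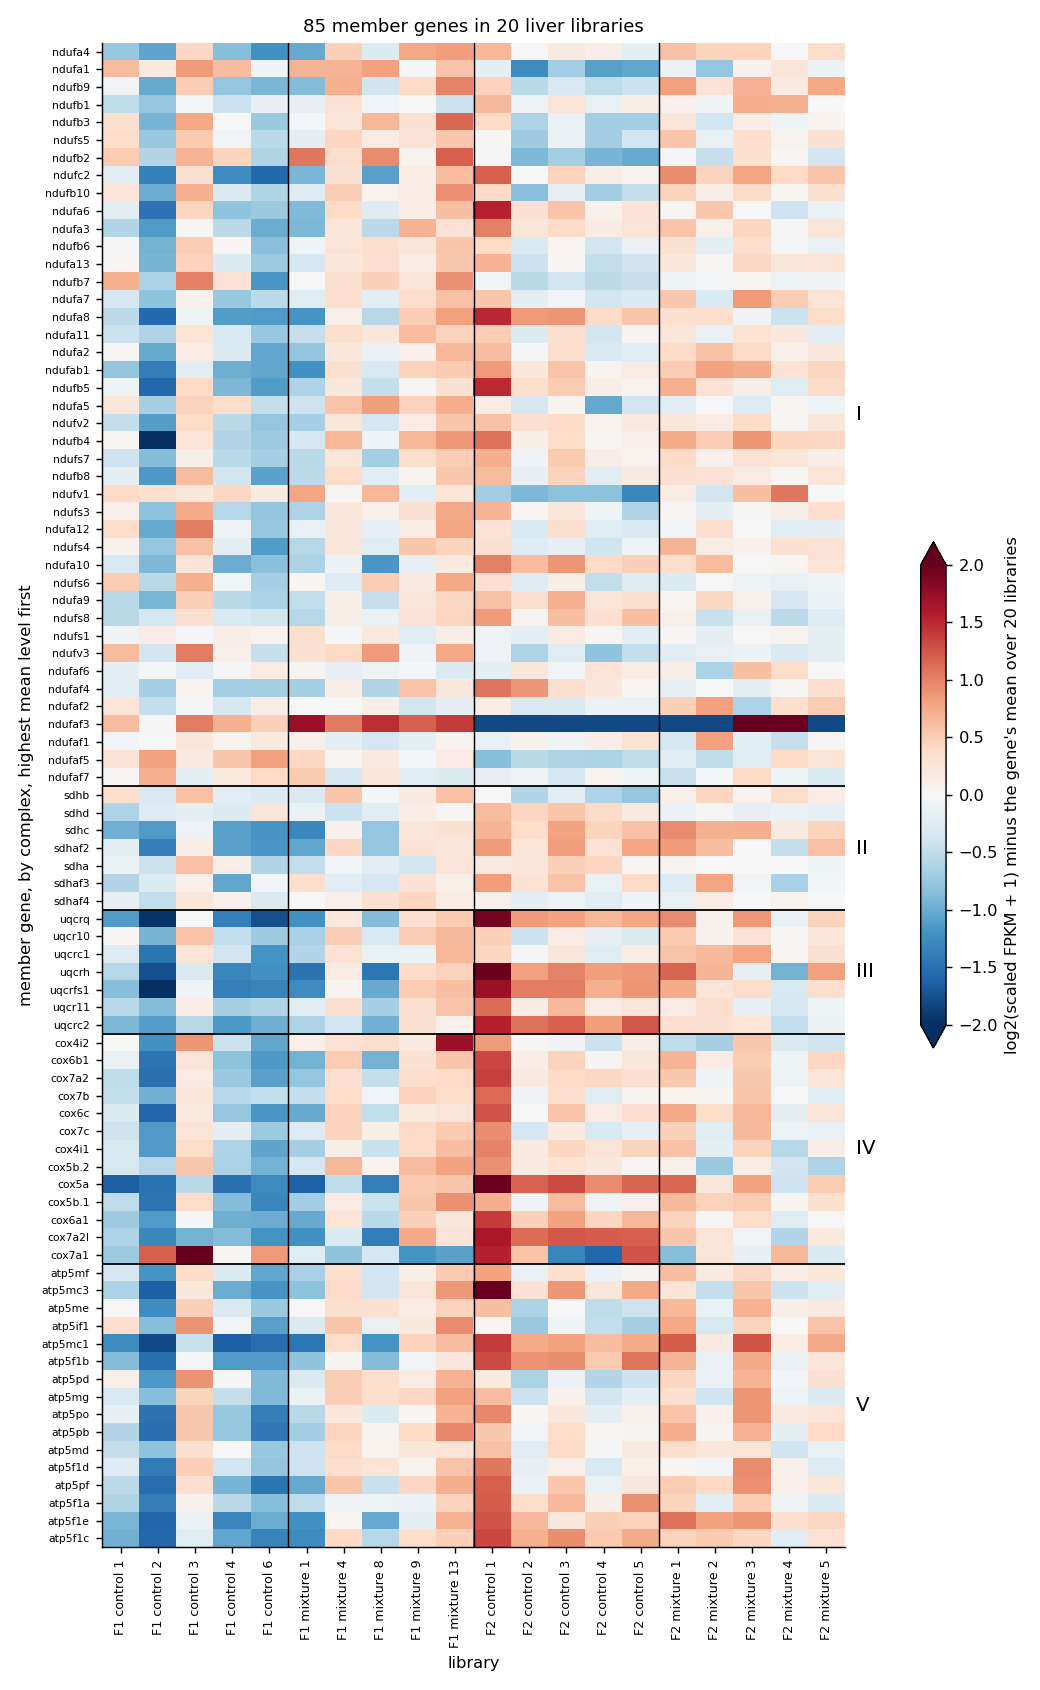
Heat map of 85 of the 86 tested members (rows, by complex and by mean level within it) in the 20 libraries (columns), coloured by log2(scaled FPKM + 1) minus the gene's mean, with the colour scale ending at -2 and 2. F1 control 2 is low and F2 control 1 high across most subunits, while ndufs1 and most assembly factors do not follow the library pattern.

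Most subunits went up and down together from library to library. After removing group means, the correlation of a member with the median of the other members over the 20 libraries had a median of 0.861 and was above 0.5 for 72 of 86. The points share library, depth and scaling, so this is a description. All 16 members of complex V (0.829 to 0.971) and all 7 of complex III (0.694 to 0.964) were above 0.5. The 7 complex I assembly factors ran from -0.741 (ndufaf7) to 0.688 (ndufaf4) and only 1 of them was above 0.5. The 3 complex II assembly factors ran from 0.22 (sdhaf3) to 0.814 (sdhaf2), with 2 of them above 0.5. Of the core subunits, ndufs1 (-0.378), ndufv1 (-0.216) and sdhd (0.024) stood outside, as did the muscle-type isoform cox7a1 (0.079).

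The median of all members varied between the libraries of a group. In F1 control the median deviation of all members ran from -0.99 (library 2) to 0.29 (library 3), and in F1 mixture from -0.50 (library 1) to 0.54 (library 13). In F2 control it ran from 0.00 (library 4) to 0.69 (library 1). F2 mixture was the tightest group, from 0.01 to 0.38, with an SD of 0.165 against 0.504, 0.422 and 0.292 in F1 control, F1 mixture and F2 control.

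**Figure D2:**
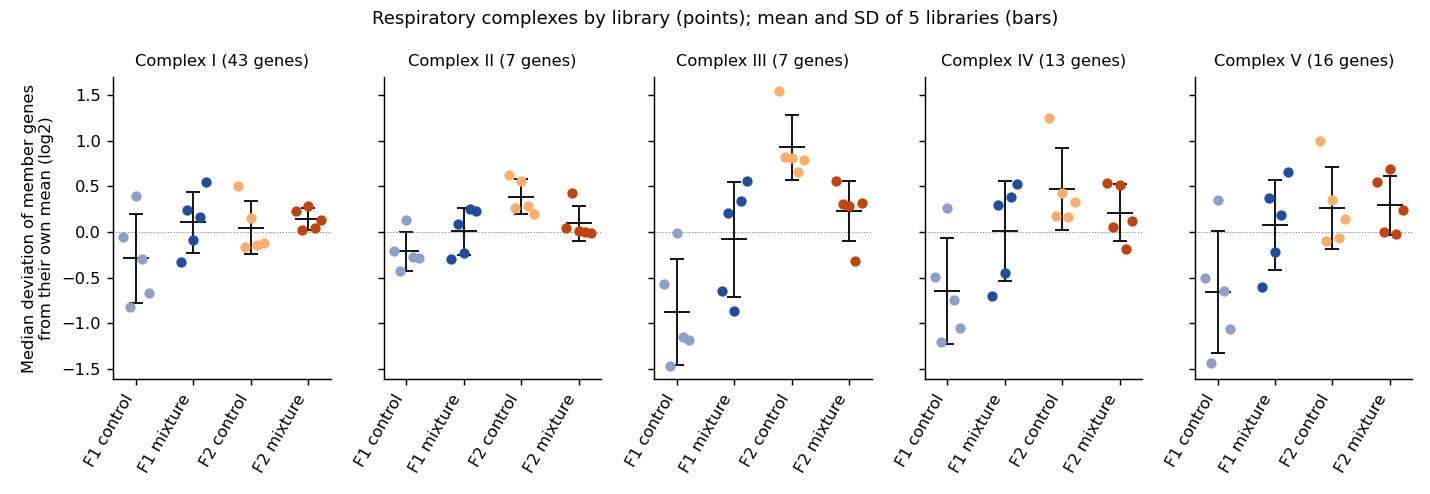
Median deviation of the tested members of each complex (y axis, log2, from each gene's mean over 20 libraries) in every library (points) by group, with mean and SD of 5 libraries (bars). Complex III separates F1 control (-1.47 to -0.01) from F2 control (0.66 to 1.55), while complex I overlaps in all 4 groups. F2 control also lies above F1 mixture and F2 mixture in complex III (each up to 0.56). Complex II separates the control groups narrowly, with F1 control up to 0.14 and F2 control from 0.20.

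Between F1 mixture and F1 control no member passed limma's test at an adjusted p under 0.05, nor did any of the 10228 genes tested (percent called 0.0). At an unadjusted p under 0.05 stood 33 of 86 members, against 12.8% of all genes, and 79 of 86 members had a positive fold change, against 47.1%. The median was 0.56 over members and -0.02 over all genes. By complex it was 0.44 (I), 0.33 (II), 0.63 (III), 0.65 (IV) and 0.65 (V). All 28 accessory subunits of complex I, all 7 members of complex III and all 16 of complex V were positive, while 3 of the 7 complex I assembly factors were.

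The smallest adjusted p among members was that of atp5f1c, the gamma subunit of the central stalk of ATP synthase, which read 30.1, 19.4, 50.1, 28.5 and 23.0 scaled FPKM in F1 control and 24.3, 79.2, 40.0, 76.2 and 83.3 in F1 mixture. Libraries 1 and 8 of the mixture group lay within the control range and the other 3 above it, and the fold change was 0.91 ± 0.31 (adjusted p = 0.296). The 2 members next in order were ndufab1, the mitochondrial acyl carrier protein (0.83 ± 0.29, adjusted p = 0.319), and atp5pb, of the peripheral stalk (0.98 ± 0.35, adjusted p = 0.319). The groups failed to overlap for 1 of 86 members with higher and 0 with lower values, against 0.684% and 0.909% of all genes. It was ndufaf3, chosen here after its values were seen, at 2.55 to 6.11 in F1 control and 6.19 to 10.4 in F1 mixture. The most negative value was that of cox7a1, -1.43 ± 0.56 (adjusted p = 0.351), from 4.63, 20.2, 40.5, 8.44 and 15.8 in control and 6.86, 4.31, 6.34, 3.11 and 3.42 in mixture.

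Weighting libraries by their fit to the model (limma's arrayWeights) called 32 of 86 members in F1, all higher. It also called 1129 of the 10228 genes tested, where none passed without weights. The directions of those 1129 calls are not given, so the direction of the members has no background here. This weighting gave F1 control 3 a weight of 0.566 and F1 mixture 1 and 8 weights of 0.447 and 0.555. In the authors' deposited table for F1, 9 members were marked significant, 8 higher and 1 lower, against 2.43% of the lines tested there (1.07% higher, 1.36% lower). These were ndufa8, ndufab1, ndufb9, uqcrfs1, uqcrq, cox5a, atp5f1c and atp5mc1, marked higher, and cox7a1, marked lower.

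**Figure D3:**
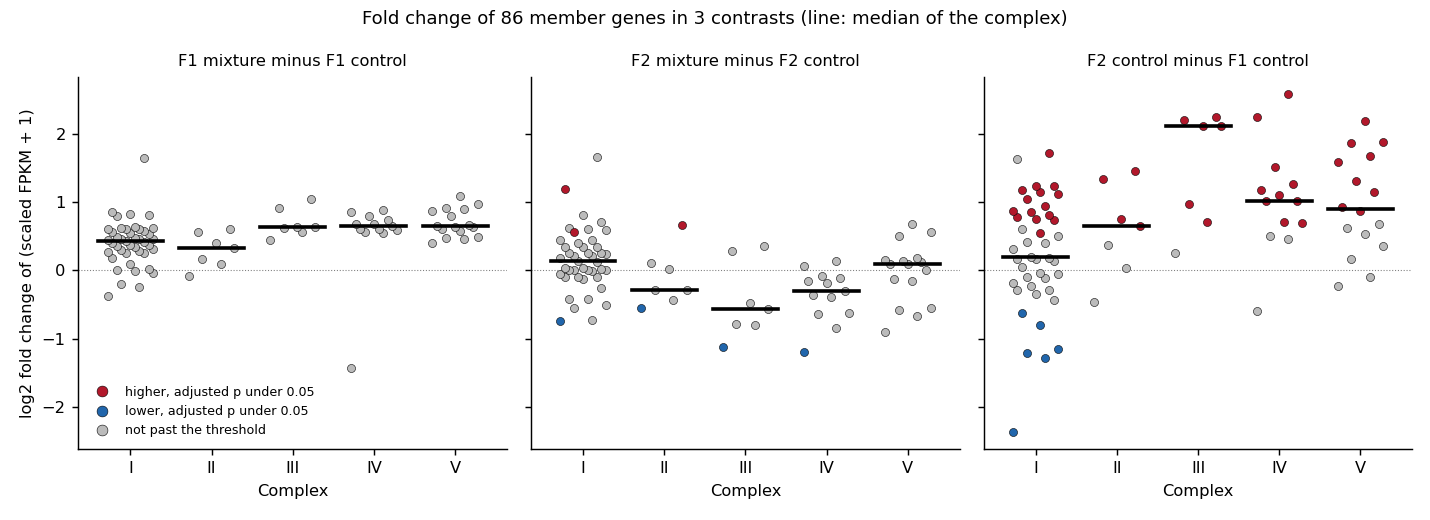
Log2 fold change of each tested member (points) by complex in 3 contrasts, with the median of each complex as a line. In F1 no point is past the threshold and the medians run from 0.33 to 0.65, in F2 7 points are past it in either direction, and between the control groups 44 are higher and 6 lower.

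Between F2 mixture and F2 control 7 of 86 members changed, 3 higher and 4 lower, which is 8.14% against 25.7% called among all genes (11.3% higher, 14.5% lower). Complexes I, II, III and IV each had at least 1 member among them and complex V had none. The median over members was 0.01, with medians of 0.13 (I), -0.29 (II), -0.56 (III), -0.30 (IV) and 0.10 (V), and -0.04 over all genes. The balance of higher and lower moved with the scaling: it was 1 to 9 without scaling, 8 to 5 after quantile normalization and 6 to 12 after removing the trend with transcript length. Over all genes 19.2%, 26.5% and 27.3% were called in these runs, in the same order. Of the 7 calls, those of ndufv1, ndufs8, uqcrc2 and cox7a2l held in every alternative run.

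Complex I gave changes in both directions within its core. For ndufv1 (chromosome 7, 58598818 to 58643849), the subunit that binds NADH and the flavin, F2 control read 22.6, 19.5, 20.5, 20.6 and 14.6 and F2 mixture 41.5, 28.4, 56.8, 78.0 and 37.4. All 5 mixture libraries were above all 5 controls, and ndufv1 rose by 1.19 ± 0.24 (adjusted p = 0.001626). Its F1 levels, 42.3 to 49.8 in control and 31.9 to 64.9 in mixture, were nearer to those of F2 mixture. For ndufs8 (chromosome 7, 58320539 to 58353295), an iron-sulfur subunit of the arm that takes electrons to ubiquinone, F2 control read 25.4, 14.2, 21.2, 17.5 and 21.3 and F2 mixture 14.7, 9.78, 12.2, 9.18 and 11.2. Of the mixture libraries 4 were below all controls, the first at 14.7 was above the lowest control at 14.2, and ndufs8 fell by 0.75 ± 0.21 (adjusted p = 0.0137). The F1 levels of ndufs8 were 8.99 to 17.0 in control and 8.83 to 18.8 in mixture, and overlapped both F2 groups.

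The third complex I call was the assembly factor ndufaf5 (chromosome 5, 28102038 to 28124317), which in human cells modifies the core subunit ndufs7. It read 1.596, 2.21, 2.08, 1.99 and 2.29 in F2 control and 2.92, 2.29, 2.96, 5.12 and 4.66 in F2 mixture. The lowest mixture library equalled the highest control at the precision given, and ndufaf5 rose by 0.56 ± 0.17 (adjusted p = 0.0206). That call was lost without scaling (adjusted p = 0.118), and without F2 control 1 (0.0502), F2 mixture 4 (0.072) or F2 mixture 5 (0.0575). Core subunit ndufs1, the largest of the iron-sulfur subunits, read 13.5 ± 0.965 (SD, n = 5), 13.8 ± 2.13, 12.4 ± 1.53 and 12.5 ± 1.12 scaled FPKM from F1 control to F2 mixture, with an F2 difference of 0.01 ± 0.13.

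In complex II the iron-sulfur subunit and a membrane anchor moved apart. The sdhb gene (chromosome 7, 131920380 to 131928546) read 82.3, 54.8, 70.5, 54.0 and 48.3 in F2 control and 88.9, 112, 86.7, 108 and 91.8 in F2 mixture, without overlap, and rose by 0.66 ± 0.23 (adjusted p = 0.0391). The F1 levels of sdhb, 66.9 to 125.5 in control and 67.4 to 125.5 in mixture, overlapped both F2 groups. With library numbers as a block in F2 the adjusted p of sdhb was 0.0541, and over all alternatives the call was lost in 10. The sdhd gene (chromosome 7, 84875016 to 84880791) read 67.8, 59.0, 64.6, 56.8 and 50.0 in F2 control and 39.8, 44.0, 38.6, 40.2 and 38.6 in F2 mixture. These groups did not overlap either, and sdhd fell by 0.55 ± 0.17 (adjusted p = 0.0233). Its adjusted p was 0.0544 without F2 control 3 and 0.0506 without F2 mixture 3. The F1 levels of sdhd, 28.1 to 52.5 in control and 32.2 to 48.0 in mixture, were nearer to those of F2 mixture. The other core subunits did not pass: sdha differed by -0.29 ± 0.19 (adjusted p = 0.287), and sdhc was at 42.8 ± 5.35 and 44.2 ± 8.91 (SD, n = 5).

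Complexes III and IV had 1 call each, both lower. The uqcrc2 gene (chromosome 9, 24841890 to 24855071), a large structural subunit of complex III without a redox centre, read 34.5, 25.0, 26.7, 20.6 and 27.7 in F2 control and 14.3, 14.1, 13.7, 7.64 and 10.2 in F2 mixture. Every control library was above every mixture library, and uqcrc2 fell by 1.12 ± 0.23 (adjusted p = 0.001714). Its partner uqcrc1 did not pass (0.36 ± 0.29, adjusted p = 0.380). The cox7a2l gene (chromosome 5, 16998008 to 17005055), whose product in mice joins complexes III and IV into supercomplexes, read 48.3, 33.9, 37.2, 36.3 and 36.1 in F2 control and 22.6, 18.5, 14.6, 9.71 and 17.5 in F2 mixture. Again the groups did not overlap, and cox7a2l fell by 1.20 ± 0.32 (adjusted p = 0.0101).

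Among the 86 members the F2 groups failed to overlap for 2 with higher values (ndufv1 and sdhb) and 4 with lower ones (ndufa8, sdhd, uqcrc2 and cox7a2l), against 7.97% and 7.38% of all genes. Of these only ndufa8, an accessory subunit of complex I, missed the test (-0.73 ± 0.34, adjusted p = 0.125). No member of complex V passed the test in F2, with adjusted p of 0.0959 or more for all 16, while 3 stood at an unadjusted p under 0.05. The c-ring gene atp5mc3 stood at -0.90 and atp5f1b, the beta subunit, at -0.67. The inhibitor atp5if1, which blocks the enzyme when it would run backwards, stood at 0.68. In the authors' deposited table for F2, 6 members were marked, 2 higher and 4 lower, against 20.3% of the lines tested there (10.4% higher, 9.88% lower). They were uqcrc2, cox7a2l, ndufa8 and cox5a, marked lower, and ndufv1 and ndufaf5, marked higher.

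**Figure D4:**
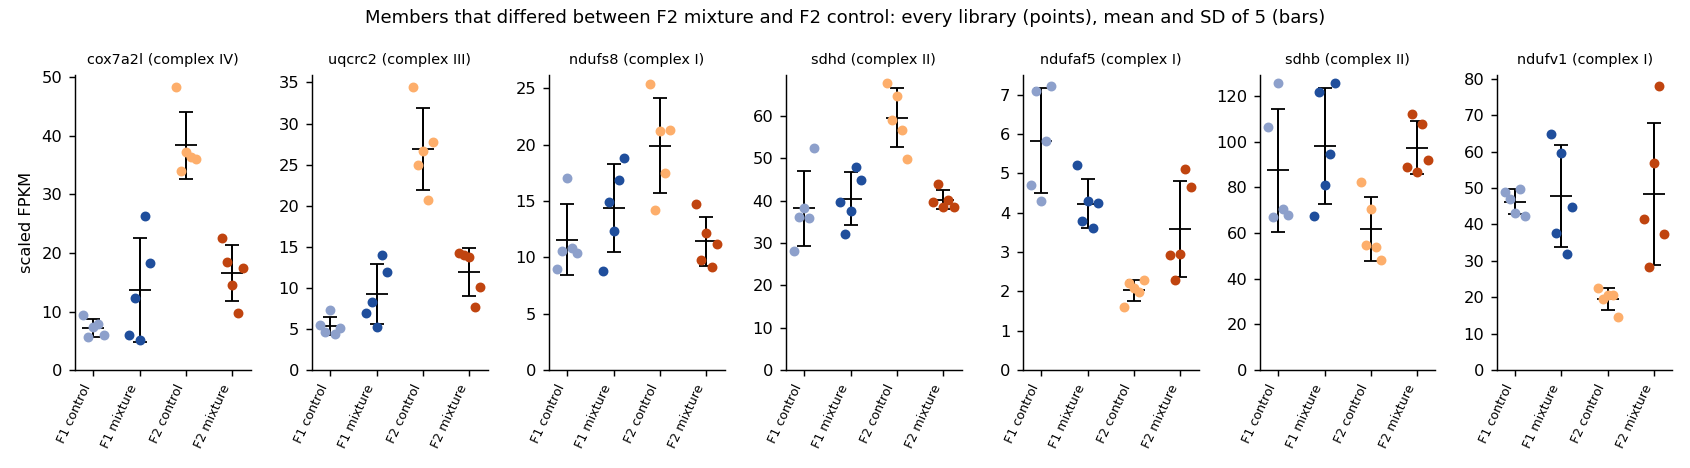
Scaled FPKM of the 7 members that differed between the F2 groups, in every library (points) with mean and SD of 5 (bars), each panel starting at 0. In the panels of uqcrc2 and cox7a2l the F2 control libraries lie at 20.6 or more and 33.9 or more, above the 3 other groups, and in those of ndufv1 and ndufaf5 they lie lowest.

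For 4 pairs of related subunit genes, levels were compared within each library. The pair of cox6a1 and cox6a2 was left out because cox6a2 was at 0 in some libraries. Complex IV subunit 4 exists as cox4i1, the general isoform, and cox4i2, which in mammals is best known from lung. In all 20 libraries cox4i2 was above cox4i1, by 5.49-fold on average and from 2.38-fold to 11.1-fold. The ratio was 5.93 ± 0.941 (SD, n = 5) in F1 control and 7.76 ± 2.62 in F1 mixture, then 4.00 ± 0.620 in F2 control against 4.28 ± 1.58 in F2 mixture, and the control groups did not overlap (4.93 to 7.29 in F1 and 3.15 to 4.60 in F2), while mixture and control overlapped within each generation. The ratio of cox7a2 to cox7a1, the liver and muscle isoforms in mammals, spread widely, from 5.54 to 47.6 in F1 control, 26.7 to 129.5 in F1 mixture, 18.8 to 196.7 in F2 control and 21.5 to 110.5 in F2 mixture. The deposited symbols cox5b.1 and cox5b.2 name a pair of genes for another subunit. The ratio of cox5b.2 to cox5b.1 was 1.59 to 2.67 in F1 control and 1.30 to 1.999 in F1 mixture, then 1.11 to 1.73 in F2 control against 0.603 to 1.09 in F2 mixture. For the proton-carrying c ring of ATP synthase, the ratio of atp5mc3 to atp5mc1 was 1.69 to 2.34, 1.28 to 2.62, 1.09 to 2.34 and 0.740 to 0.990 in the same order. In the cox5b and atp5mc pairs all 5 F2 mixture libraries lay below the other 15, a pattern seen after the values were known and not tested. The genes of a pair are related, and whether reads were split between them was not tested.

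The test of the difference between the F2 effect and the F1 effect passed for 16 of 86 members, 2 higher and 14 lower, which is 18.6% against 20.1% of all genes (9.52% higher, 10.5% lower). The median over members was -0.58 and over all genes -0.03. Complex III had 4 of 7 lower, complex IV 4 of 13, complex V 4 of 16 and complex I 2 of 43, where the 2 higher members also were. Complex II had none.

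The 2 members with a more positive effect in F2 were ndufv1 (1.19 ± 0.34, adjusted p = 0.0192) and ndufaf5 (0.93 ± 0.24, adjusted p = 0.0121). In complex III the differences were -1.74 ± 0.32 for uqcrc2 (adjusted p = 0.001867), -1.71 for the Rieske iron-sulfur protein uqcrfs1, -1.61 for the small subunit uqcrq and -1.05 for uqcr11. In complex IV they were -1.81 ± 0.45 for cox7a2l (adjusted p = 0.0102), -1.65 for cox5a, -1.37 for cox5b.2 and -1.29 for cox6a1. In complex V they were -1.81 for atp5mc3, -1.47 for atp5f1c, -1.31 for atp5f1b and -1.16 for atp5f1a, the alpha subunit of the catalytic head. Those of complex I were -1.55 for ndufa8 and -1.03 for ndufs8. Only ndufs8, uqcrc2 and cox7a2l among the 14 also passed the test between the F2 groups themselves. None of the 14 passed it between the F1 groups, where no gene tested did.

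The Rieske protein gene is an example of such a difference. In F1, uqcrfs1 read 23.4, 9.76, 40.7, 16.1 and 16.6 in control and 17.5, 45.2, 21.0, 62.0 and 66.4 in mixture. In F2 it read 145, 88.8, 89.5, 71.8 and 80.9 in control and 73.4, 51.9, 56.2, 34.5 and 55.1 in mixture. F1 mixture libraries 4, 9 and 13 were above all F1 controls, while 4 of the 5 F2 mixture libraries were below all F2 controls. From F1 to F2, uqcrfs1 rose by 2.21 between the control groups and by 0.50 between the mixture groups, where it did not pass. The count of 16 fell to 5 without F1 mixture 9 or F1 mixture 13, to 6 without F2 mixture 4, to 7 without F1 control 2 or F1 mixture 4 and to 8 without F1 control 4, F1 control 6 or F2 control 1. In these runs the share called over all genes fell too, from 20.1% to between 13.5% (without F1 mixture 9) and 17.3% (without F2 control 1). The calls of uqcrc2, cox7a2l, ndufv1, ndufs8 and ndufaf5 remained when any single library was left out. With library numbers as a block in both generations the count was 1, and the calls of cox7a2l (adjusted p = 0.1208), ndufv1 (0.1464), ndufs8 (0.09596) and ndufaf5 (0.1956) were lost. The share called over all genes also fell, from 20.1% to 2.51%. In F1 only numbers 1 and 4 occur in both groups, so this block leaves the F1 effect to those pairs. With the mean level of erythrocyte markers as a covariate the count was 4, and that of ndufv1 was lost (0.0562).

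Between the control groups, which differ in generation, 50 of 86 members changed, 44 higher and 6 lower in F2 control than in F1 control. This is 58.1% against 55.9% called among all genes, but 51.2% against 27.4% for those higher and 6.98% against 28.5% for those lower. The groups did not overlap for 21 members with higher and 4 with lower values, against 20.3% and 21.5% of all genes. The median was 0.69 over members and -0.03 over all genes. All 25 changed subunits of complexes III, IV and V were higher: 6 of 7 in complex III (median 2.12), 10 of 13 in complex IV (1.02) and 9 of 16 in complex V (0.91). Complex II had 4 of 7 higher (0.65) and none lower. Complex I was divided, with 15 of 43 higher and 6 lower (0.19).

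Complex III stood furthest apart. Its uqcrc2 read 5.52, 4.67, 7.27, 4.46 and 5.13 in F1 control and, as above, 20.6 to 34.5 in F2 control, a rise of 2.12 ± 0.23 (adjusted p = 1.27e-06). Also higher were uqcrq (2.25 ± 0.39, adjusted p = 9.439e-05), uqcrfs1 (2.21 ± 0.37), uqcrh, the hinge protein (2.12 ± 0.45), uqcr11 (0.97 ± 0.26) and uqcrc1 (0.71 ± 0.29). The call of uqcrc1 (adjusted p = 0.0451) was lost in 18 of 32 alternatives, with adjusted p from 0.009198 to 0.3244 over all of them. The groups did not overlap for 5 of the 7. The last, uqcr10, stood at 0.26 and did not pass.

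In complex IV the accessory subunit cox5a read 19.1, 21.3, 41.9, 21.0 and 24.8 in F1 control and 241, 139, 152, 119 and 138 in F2 control, and rose by 2.59 ± 0.39 (adjusted p = 2.712e-05). The supercomplex factor cox7a2l rose by 2.26 ± 0.32, cox6a1 by 1.52 ± 0.29, cox7a2, the isoform found in liver of mammals, by 1.26 ± 0.32 and cox4i1 by 1.02 ± 0.31. The gene cox4i2 was at 558 ± 355 and 695 ± 248 (SD, n = 5) and did not pass. In complex V the c-ring gene atp5mc1 read 72.6, 49.9, 130, 56.1 and 61.2 in F1 control and 469, 295, 311, 273 and 296 in F2 control, and rose by 2.20 ± 0.39 (adjusted p = 0.0001183). The genes atp5f1c and atp5f1b rose by 1.88 ± 0.31 and 1.88 ± 0.29, and atp5po, which links stalk and head, by 0.87 ± 0.34. The call of atp5po (adjusted p = 0.0368) was lost in 10 of 32 alternatives (0.003852 to 0.2114 over all), and that of cox4i1 with the erythrocyte covariate (0.0850). The inhibitor atp5if1 (-0.23, adjusted p = 0.585) and the 4 membrane accessory subunits did not pass.

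In complex II the rises were those of sdhc (1.47 ± 0.28, adjusted p = 0.0002354), the assembly factor sdhaf2 (1.35 ± 0.34), the assembly factor sdhaf3 (0.76 ± 0.25) and sdhd (0.65 ± 0.17). In complex I ndufa8 (1.72 ± 0.34) and ndufab1 (1.25 ± 0.29) rose most. The core subunits ndufs7, ndufs8 and ndufv2 rose by 0.74 to 0.82, and the accessory subunit ndufa9 by 0.88 ± 0.24. Lower were ndufv1 (-1.21 ± 0.24, adjusted p = 0.0003223), ndufaf5 (-1.15 ± 0.17, adjusted p = 2.225e-05), ndufa1 (-1.29 ± 0.26), ndufb2 (-0.80 ± 0.30), ndufv3 (-0.63 ± 0.25) and ndufaf3. The call of ndufb2 was lost in 7 alternatives, those of sdhaf2, ndufa9 and ndufab1 with the erythrocyte covariate and that of sdhd without scaling. For ndufa1, a small membrane subunit, F1 control read 566, 419, 660, 564 and 347 and F2 control 323, 152, 228, 173 and 178, without overlap.

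The value of ndufaf3 needs care. It was listed at 0 in all 5 F2 control libraries and in F2 mixture 1, 2 and 5, at 22.8 and 12.7 in F2 mixture 3 and 4, and between 2.55 and 10.4 in every F1 library. No fold is given for it. The authors' deposited table for F2 gives means of 2.33 FPKM for control and 12.4 FPKM for mixture. In reference gene coordinates it overlaps impdh2, and 9 of the 87 members overlap another gene, where reads could be split. Among them are uqcrq, uqcrh, atp5f1b and ndufv3, whose changes between the control groups are given above. Another listed 0 was ndufb4 in F1 control 2, a gene that overlaps hgd.

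Between F2 mixture and F1 mixture only 2 of 86 members changed, both higher, which is 2.33% against 14.2% of all genes (6.06% higher, 8.11% lower). The groups did not overlap for 0 members with higher and 1 with lower values, against 3.18% and 5.44% of all genes. The median was 0.13 over members and -0.04 over all genes. The anchor subunit sdhc read 10.9, 30.0, 16.1, 33.7 and 35.1 in F1 mixture and 55.5, 46.8, 47.5, 32.2 and 38.8 in F2 mixture, with 1 F2 library below the highest F1 libraries, and rose by 0.89 ± 0.28 (adjusted p = 0.0398). The epsilon subunit of the central stalk, atp5f1e, read 33.8, 82.4, 39.4, 69.6 and 129 in F1 mixture and 173, 140, 148, 101 and 106 in F2 mixture. F1 mixture 13 was above F2 mixture 4 and 5, and atp5f1e rose by 1.04 ± 0.33 (adjusted p = 0.0415). Neither call remained without F1 mixture 1 or 8, without F2 mixture 1, 2 or 3, or in a model of these groups alone. Without F2 mixture 3 the count of members called was nevertheless 2, with 11.9% of all genes called. The count was 5 without F1 mixture 9 and 1 without F2 control 4, and the split of higher to lower was 0 to 5 without scaling, 2 to 3 after quantile normalization and 4 to 5 with the length trend removed. The contrasts share libraries, so their values stand side by side and are not independent.

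Other values of the same libraries moved with the members. Over the 20 libraries, the median of all members had a Pearson r of 0.914 with the median of 72 genes of the cytosolic ribosome, 0.929 with that of 76 genes of the mitochondrial ribosome and -0.917 with the slope of level on relative transcript length. With the median of 20 genes of the tricarboxylic acid cycle r was 0.794, and by complex it ran from 0.629 (I) to 0.934 (III). Each pair of values shares library and scaling. Whether a bias to short transcripts is shared as well was not tested. The slope, which is negative where short transcripts read higher, ran from -0.09 to 0.16 in F1 control and -0.12 to 0.09 in F1 mixture, then -0.18 to 0.06 in F2 control against -0.09 to 0.03 in F2 mixture. Ribosomal protein genes were positive in 72 of 72 cases in F1 (median 0.69, none called). Between the control groups 56 of 72 were higher and none lower (median 1.53), and between the F2 groups 4 were higher and 1 lower (median 0.31). The median of the 7 complex I and 3 complex II assembly factors had an r of -0.16 with the ribosomal median. Single factors differed, and 2 of the 3 of complex II moved with the other members, as given above.

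**Figure D5:**
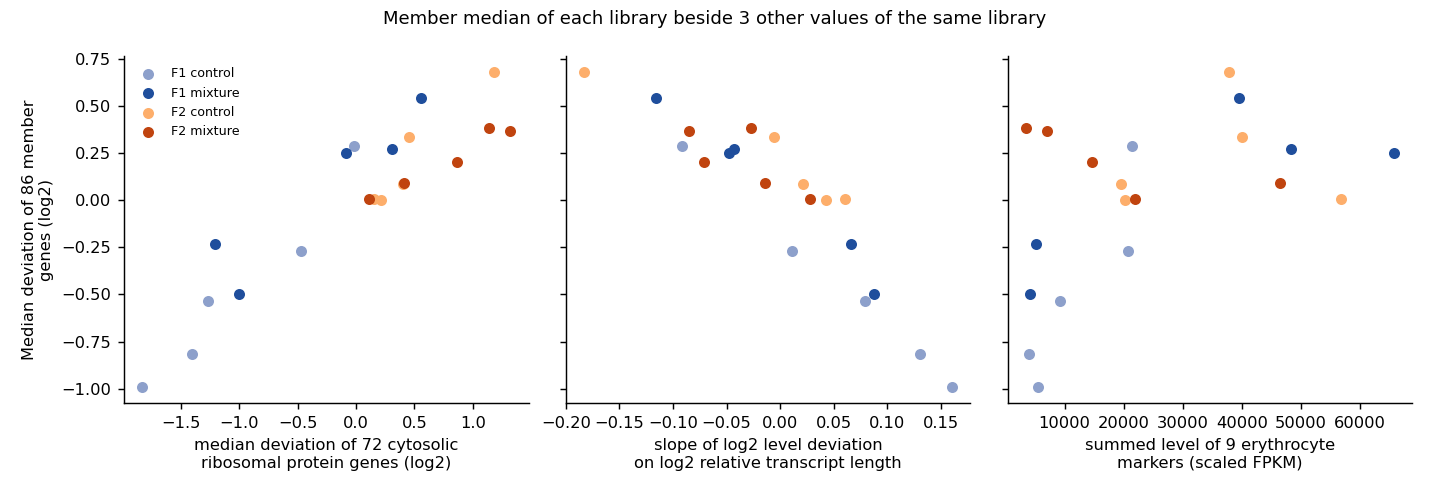
Median deviation of the 86 members (y axis, log2) in each library beside the median deviation of 72 cytosolic ribosomal protein genes, the slope on relative transcript length and the summed level of 9 erythrocyte markers (x axes), coloured by group. F1 control 2 is at the low end of the first and the high end of the second axis (-0.99 on the y axis) and F2 control 1 is highest on the y axis (0.69), at the opposite end of the second axis and next to the highest, F2 mixture 1, on the first.

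The summed hepatocyte markers, whose ranges are given above, had an r of 0.67 with the median of all members, 0.767 with that of complex III and 0.776 with that of complex IV. The erythrocyte sum had an r of 0.508 with all members. F1 mixture 1 and 8, low in members, had sums of 4213 and 5163, and F1 mixture 4, 9 and 13, high in members, had 48390, 65760 and 39570. F2 mixture 3, also high in members, had 3512. With the mean log2 level of erythrocyte markers as a covariate, added after the data were seen, 23 members differed between the control groups (19 higher, 4 lower) and 4 had different effects in the generations (1 higher, 3 lower), while 8 differed between the F2 groups. With the length trend removed these counts were 52, 20 and 18. Over all genes the shares called with the covariate were 38.0%, 13.3% and 25.0% (members 26.7%, 4.65% and 9.3%), and with the length trend removed 57.9%, 22.2% and 27.3% (members 60.5%, 23.3% and 20.9%), in the same order. The part of hepatocytes, red cells and transcript length in the results was not tested.

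Genes that work beside the complexes were counted from lists drawn up by function, and their counts are to be read against the shares of all genes called, 11.3% higher and 14.5% lower between the F2 groups and 27.4% and 28.5% between the controls. Of 18 tested carrier and exchange genes (22 listed), 1 was higher and 6 lower between the F2 groups (5.56% and 33.3%). The lower ones were cyct, a cytochrome c (-0.93 ± 0.24, adjusted p = 0.008395), coq7 (-0.95 ± 0.19) and coq4 of ubiquinone synthesis, etfa and etfdh, which feed in electrons from fatty acids, and the phosphate carrier slc25a3. The higher one was coq9 (0.45 ± 0.16). Cytochrome c1, cyc1, the haem subunit of complex III that the naming rule does not reach, did not pass (0.73 ± 0.29, adjusted p = 0.0710). The adenine nucleotide carrier slc25a5 read 38.2 to 83.2 in F1 control and 448 to 724 in F2 control, without overlap, and rose by 3.31 ± 0.41 (adjusted p = 4.905e-06), while in F2 it did not pass (-0.65 ± 0.41). Between the control groups 6 of the 18 were higher and 2 lower (33.3% and 11.1%).

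Of 39 tested assembly factors outside the naming rule (45 listed), 3 were higher and 4 lower between the F2 groups (7.69% and 10.3%). They included cox17, a copper chaperone for complex IV (0.98 ± 0.26, adjusted p = 0.0110), timmdc1 and ttc19 among the higher, and tmem242 (-1.12 ± 0.19, adjusted p = 0.0004917), uqcc3, uqcc1 and cox19 among the lower. Of 20 genes of the tricarboxylic acid cycle, which supplies the chain with NADH and succinate, 1 was higher and 6 lower between the F2 groups (5.0% and 30.0%) and 13 were higher and 2 lower between the controls (75% called in all, against 55.9% of all genes). Citrate synthase, cs, was at 22.6 ± 1.48 (SD, n = 5) in F2 control and 12.6 ± 2.75 in F2 mixture (-0.82 ± 0.23, adjusted p = 0.0118), while ogdh of the oxoglutarate dehydrogenase was higher (1.90 ± 0.47, adjusted p = 0.006621). Of 16 tested regulators of mitochondrial gene expression (21 listed), 2 were higher and 1 lower between the F2 groups (12.5% and 6.25%). The mitochondrial DNA-binding protein ssbp1 was higher (1.24 ± 0.29, adjusted p = 0.004354). The coactivator ppargc1a did not pass there (0.32 ± 0.56). From F1 mixture to F2 mixture 3 of the 16 were higher and 0 lower (18.8% higher, against 6.06% of all genes). Among them was ppargc1a, at 0.221 to 0.604 in F1 mixture and 0.656 to 18.4 in F2 mixture (2.02 ± 0.56, adjusted p = 0.0230). Its F1 mixture values were near the floor, below the mean of 1 FPKM required, and it entered the test through higher values elsewhere. None of these lists had a gene that passed in F1, where no gene tested did.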

How the data were processed

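The authors deposited, for each of the 20 libraries, a table of FPKM per gene with lower and upper limits, and the submitters' processing notes name Trimmomatic 0.32.1, HISAT2, Cufflinks 0.0.7 and Cuffdiff 0.0.7. The authors' 2 deposited tables of comparisons give group means in FPKM, log2 fold changes, a score for the test, and p-values with q-values. Which genome build was used is not given in the sources at hand. Coordinates are those of the deposited tables, counted from 1, and for 20164 of 20372 named genes, with all 87 members, they equal those of UCB_Xtro_10.0. The 70 lines without a name (0.000624% to 0.00856% of summed FPKM) were left out. Values not marked sound were set to missing, and 3 sound values per group were required. The title numbers of F1 mixture 9 and 13 are exchanged in their file names, and both tables follow the sample record, not the file name.

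FPKM was divided by the library's median ratio to the geometric mean of 6971 genes, and log2(scaled FPKM + 1) was tested with limma 3.58.1 in R 4.3.3. Genes with a mean of 1 FPKM or more entered (10228), with 4 group means in 1 model, a variance trend, two-sided p and Benjamini-Hochberg adjustment over all genes at 0.05. Replicates of a group correlated at 0.896 to 0.967. The files hold no counts, and the fragments per library given above were computed from the limits. Relative transcript length was taken from the ratio of those fragments to FPKM. The test was checked on simulated data with known changes, of which it recovered part. Erythrocyte and other marker sums used scaled FPKM.

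Members, lists, alternatives and the rule for named genes were chosen with earlier results of these data known. Named were catalytic and isoform genes chosen by function, the 2 members with the largest called change in each direction per complex and contrast, the 3 smallest p per contrast, and the 5 highest and 5 lowest levels. Of these, cox8a, ndufa4l2 and atp5mc2 were not analysed here. In F2, libraries with the same number deviated together (correlations 0.385, 0.369, 0.154, 0.104 and 0.169), a pairing by the numbers in the titles that rests on this check. For numbers 1, 2 and 5 the match was the best for both libraries. For numbers 3 and 4 it was the best for the F2 control library but not for the F2 mixture library. In F1, with numbers 1 and 4 shared, they did not (-0.016 and -0.188). Alternatives were the pseudocount, filter, scaling, length trend, library weights, the groups in the model, the variance trend, a block for library number, an erythrocyte covariate and leaving out each library. No sequence was used, and the planned search of promoters for motifs was not run. For 1 member the values are not reported here, though it is part of every count.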

Additional observations from a re-analysis of the deposited data

Results flagged for a closer look

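In 14 of 192 groups of 5 libraries examined, 1 library stood apart from the other 4 by a gap over 0.71 of the group's range, and chance alone gives about 1 in 20. Gap and range were taken on log2(scaled FPKM + 1), or on the median deviation of a complex, not on scaled FPKM itself. Of the 14 groups, 13 are given. F1 control 3 was the highest of its group for ndufa4 (0.724), ndufa9 (0.727), ndufs8 (0.716) and sdhc (0.789). F2 control 1 was the highest of its group for atp5mc1 (0.760), cox7a2 (0.804), cox7a2l (0.736), uqcrq (0.843), the median of complex III (0.812) and the median of complex IV (0.754). In F1 mixture, library 13 stood apart for cox4i2 (0.862), at 2050 scaled FPKM against 665 to 777 in the other 4, and library 9 was lowest for ndufa1 (0.715). In F2 mixture, library 2 was highest for the median of complex II (0.870). These gaps share libraries and are not independent.

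The mixture effect differed between generations, by the test of the difference itself, for 16 members. The difference (F2 effect minus F1 effect, log2) was positive for ndufv1 (1.19) and ndufaf5 (0.93). It was negative for ndufa8 (-1.55), ndufs8 (-1.03), uqcr11 (-1.05), uqcrc2 (-1.74), uqcrfs1 (-1.71), uqcrq (-1.61), cox5a (-1.65), cox5b.2 (-1.37), cox6a1 (-1.29), cox7a2l (-1.81), atp5f1a (-1.16), atp5f1b (-1.31), atp5f1c (-1.47) and atp5mc3 (-1.81). That is 18.6% of members against 20.1% of all genes.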

How the results depend on the processing

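No direction reversed among 62 results for named genes under the alternatives run, of which 24 kept their side of the threshold throughout, 34 lost it in some and 4 gained it in some. Over all alternatives these results stayed on their side 1731 times, lost the threshold 249 times and gained it 7 times. Counts that moved by more than 1.5 times were these. In F1, library weights called 32 members in place of 0. Over all genes the same run called 1129 of 10228, also in place of 0. The median over members in F1 ran from 0.27 (replicate block) to 0.73. In F2, 7 became 13 after quantile normalization, 18 with the length trend removed and 16 with library weights, and the median, 0.01, was -0.07 without scaling. Over all genes 26.5%, 27.3% and 35.2% were called in the runs with these counts, against 25.7%. The difference of effects, 16, became 32 with weights, 1 with the replicate block in both generations, 16 with the block in F2 only and 4 with the erythrocyte covariate. In the same order 37.8%, 2.51%, 23.1% and 13.3% of all genes were called, against 20.1%. Of the 7 F2 calls the replicate block lost sdhb (adjusted p = 0.0910, or 0.0541 with the block in F2 only) and, in both generations, sdhd (0.0565), and the counts of 6 and 8 include other members. In F2 control against F1 control, 50 became 23 with the erythrocyte covariate, while the share called over all genes went from 55.9% to 38.0%. In F2 mixture against F1 mixture, 2 became 0 with no filter, with weights, with only the groups compared or with the replicate block, 5 without scaling, 5 after quantile normalization and 9 with the length trend removed. In the same order 7.22%, 7.67%, 4.98%, 1.94%, 15.1%, 14.8% and 17.2% of all genes were called, against 14.2%. Between generations the replicate block joined F1 and F2 libraries of the same number, which did not deviate together. Their correlations were -0.193 and -0.239 between the mixture groups and -0.001 to 0.08 between the control groups. Leaving out each library gave 0 in F1, 5 to 9 in F2, 5 to 22 for the difference of effects, 41 to 55 between controls and 0 to 5 between mixture groups. Over all genes the shares called were 0.0% to 0.235%, 17.3% to 32.2%, 13.5% to 26.9%, 51.1% to 58.0% and 7.53% to 14.8%, in the same order. Without scaling, the median of all genes shifted to -0.11 in F1, -0.22 between controls and -0.21 between mixture groups. The cause of these changes was not tested. A model of only the groups compared gives no value for the difference of effects. Low members such as ndufaf7 and cox7a1 rest on few fragments (a median of 86 and 42 per library).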

Other observations

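The deposited F2 table of the authors and the model of 20 libraries differed for 5 members. In the authors' deposited table ndufa8 had a log2 fold change of -0.83 (q = 0.0310) and cox5a one of -0.82 (q = 0.0381), both marked lower. In limma's model they stood at -0.73 ± 0.34 (adjusted p = 0.125) and -0.85 ± 0.39 (adjusted p = 0.115). Of the 7 F2 calls in limma's model, 3 are not marked in the authors' deposited table: ndufs8 (q = 0.1044), sdhb (q = 0.3494) and sdhd (q = 0.4368).

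Of 76 genes of the mitochondrial ribosome, which translates the subunits encoded in mitochondrial DNA, 29 were higher and 5 lower in F2 control than in F1 control (44.7% called against 55.9% of all genes, median 0.34). Between the F2 groups 8 were higher and 4 lower (15.8% against 25.7%, median 0.07). In F1, where no gene tested passed limma's test, 0 of the 76 did. At an unadjusted p under 0.05 stood 11 of the 76, against 12.8% of all genes, and the median was 0.25. Between the mixture groups 24 of 72 genes of the cytosolic ribosome were higher and 0 lower (33.3% called against 14.2% of all genes, median 1.12), beside 2 of 86 members of the complexes.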
